A study of Mus musculus with 9 samples.

Results

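The 8 genes described here are the Notch genes Jag1, Jag2, Dll1, Notch1, Notch2, Rbpj, Hes1 and Hey1, chosen by symbol as 8 of the 26146 genes of a table of RNA-seq counts and FPKM (fragments per kilobase of transcript, scaled to the mapped fragments of the library). The cells were RAW264.7, an established mouse macrophage line, and a single line stood behind every library. There were 9 libraries in 3 groups of 3, called here by their column names M, ET and Normal. Normal cells were untreated, and M and ET cells both received lipopolysaccharide (LPS), a bacterial cell-wall component that activates macrophages. A Traditional Chinese Medicine extract was added in 1 of these 2 groups. The sample labels contradict themselves on which one. Through the column names they cite, M is LPS with extract and ET is LPS alone, whereas the library names give the reverse. The labels used here state no dose, no time of treatment and no plant source. M against ET is therefore the difference between the LPS groups with its sign read by column name, and the mean of M and ET against Normal has the same meaning under both readings.

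Notch signalling passes between touching cells. A Jagged or Delta ligand on one cell binds a Notch receptor on its neighbour, the receptor is cut by an ADAM protease and then by gamma-secretase, and the freed intracellular domain enters the nucleus. There it joins the DNA-binding protein RBPJ and Mastermind co-activators on genes such as those of the Hes and Hey repressors, while RBPJ without Notch recruits co-repressors. In macrophages, Notch ligands and receptors are known to change with Toll-like receptor stimulation, the pathway through which LPS acts.

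LPS-treated cells differed from Normal cells in most members that were expressed. In the mean of M and ET against Normal, 73.5% of all tested genes also differed, so this is not particular to the members. Jag2 fell and Jag1 rose in both LPS groups, so that the ligand with the higher level was Jag1 in M and ET cells and Jag2 in Normal cells. The receptor gene Notch2 and the nuclear mediator gene Rbpj rose, Rbpj by about as much as Jag2 fell, and so did Notch1 at a low level. The targets Hes1 and Hey1 were at low or near-zero levels in every group. Between M and ET, Jag1 was the 1 member called, at a lower level in M.

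Depth was 57796361 to 60881764 counts per library in M, 55039858 to 62962615 in ET and 56921531 to 76242718 in Normal, so that 3 counts, used as the detection floor, correspond to between 0.0376 and 0.0552 CPM (counts scaled to library size). The LPS response genes followed the treatment labels: Tnf averaged 255 FPKM in M, 329 FPKM in ET and 36.3 FPKM in Normal. Il6 averaged 127 FPKM in M, 75.2 FPKM in ET and 0 FPKM in Normal, and Nos2 averaged 67.7 FPKM in M, 66.0 FPKM in ET and 0 FPKM in Normal. The 8 macrophage markers were all measured and summed to 2415 to 2467 FPKM in M, 2493 to 2673 FPKM in ET and 2023 to 2143 FPKM in Normal. They did not move as a set: against Normal, Cd14, Cd68, Adgre1 and Itgam were higher and Csf1r, Lyz2 and Spi1 lower in both M and ET, with Cd14 at 1009 FPKM in M, 959 FPKM in ET and 201 FPKM in Normal. Fcgr1 was called lower in M than in Normal (log2 fold change -0.11, edgeR adjusted p 0.0283) and was not called in ET (0.0065, edgeR adjusted p 0.895). Summed levels of the lists for other cell types also differed with LPS, mostly through single genes. The 4 granulocyte markers in the table summed to 41.4 to 47.5 FPKM in M, 37.8 to 46.9 FPKM in ET and 0 to 0.129 FPKM in Normal, of which S100a8 made nearly all, with S100a9, Mpo and Elane at or near 0. The 6 fibroblast markers summed to 4.13 to 6.13 FPKM in M, 3.07 to 3.57 FPKM in ET and 0.0273 to 0.0731 FPKM in Normal, of which Lum made most and Dcn nearly all the rest, with Col1a1, Col1a2, Col3a1 and Pdgfra near 0. The 4 endothelial markers, mostly Pecam1, summed to 3.23 to 3.58 FPKM in M, 2.85 to 3.26 FPKM in ET and 0.780 to 0.953 FPKM in Normal. The 4 erythroid and platelet markers, mostly Hba-a1, summed to 0.907 to 1.55 FPKM in M, 1.13 to 1.30 FPKM in ET and 0.0110 to 0.0929 FPKM in Normal. The 4 lymphocyte markers, mostly Cd79a and Cd79b, summed to 0.959 to 1.18 FPKM in M, 0.835 to 1.93 FPKM in ET and 0.181 to 0.619 FPKM in Normal. The 2 epithelial markers in the table reached at most 0.0330 FPKM. The part of these shifts in the results was not tested, and in bulk RNA fewer cells of a kind and less RNA per cell cannot be told apart. On the second principal component, with 2.87% of the variance, the ET libraries 1, 2 and 3 lay at -12.7, -12.6 and -5.47 and the M libraries between 9.44 and 10.4, so ET replicate 3 stood nearest to M.

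Promoter stretches are shown for Rbpj and Notch2, chosen among the members that rose because their windows held a searched motif, a different one in each. Jag1 and Notch1 also rose. The sequences are from RefSeq (GRCm38.p6), whose table has promoters (250 bases before to 50 after a start) for 6 of the 8 members, and each stretch runs from the far end to the base before the nearest annotated exon. The Rbpj stretch belongs to an internal start, since the annotated gene begins upstream of it. In the Rbpj stretch, at chr5:53590096-53590213 on the plus strand, capitals mark the core TGGGAA of the motif that RBPJ itself binds. In the Notch2 stretch, at chr3:98013288-98013526 on the plus strand, capitals mark a match to the NF-kB consensus, the motif of the factor best known for carrying the LPS response.
Rbpj promoter: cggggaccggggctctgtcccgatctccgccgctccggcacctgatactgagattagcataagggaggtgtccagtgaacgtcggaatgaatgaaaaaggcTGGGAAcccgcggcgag
Notch2 promoter: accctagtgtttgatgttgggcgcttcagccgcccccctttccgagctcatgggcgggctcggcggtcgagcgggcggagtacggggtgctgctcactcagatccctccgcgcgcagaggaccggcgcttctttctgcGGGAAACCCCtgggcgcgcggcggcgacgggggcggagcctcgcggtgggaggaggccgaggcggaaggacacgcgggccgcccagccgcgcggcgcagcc
The RBPJ core in the Rbpj stretch began 149 bases before the start, and a reverse match, TTCCCA, began 65 bases before it, past the end of the printed stretch. The other Rbpj window overlaps this one and held only that reverse match. The NF-kB match in Notch2 began 112 bases before its start. It reads on both strands and shares the letters GGGAA with the RBPJ core, but the base before them is not T. Searched on both strands, TGGGAA occurred in 25.6% of 32851 RefSeq promoters of 300 bases, and the NF-kB consensus in 8.46%. Dll1 held an NF-kB match in 1 of its 2 windows. The Jag1, Jag2 and Notch1 windows held neither motif, which says only that these letters are not in those windows.

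Of the 8 members, 4 passed the filter on low values, which 3 or more of the 9 libraries had to meet with an FPKM of 1 or higher and which 11536 genes passed: Jag1, Jag2, Notch2 and Rbpj, each above 1 FPKM in 9 of 9 libraries. Notch1 and Hes1 passed a looser count filter (edgeR's filterByExpr, 16074 genes) and are given from that separate fit. Dll1 and Hey1 passed neither. A gene was called at an adjusted p under 0.05 (edgeR's quasi-likelihood test, Benjamini-Hochberg over all genes tested). All 4 tested members were called in M against Normal, where 70.0% of all tested genes were called, in ET against Normal, where 70.2% were, and in the mean of both against Normal, where 73.5% were. With a background this high, the count of 4 of 4 is not a result about the members, and their sizes are more informative. M against Normal and ET against Normal share the Normal libraries, so their values stand side by side and are not independent of each other.

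**Figure D1:**
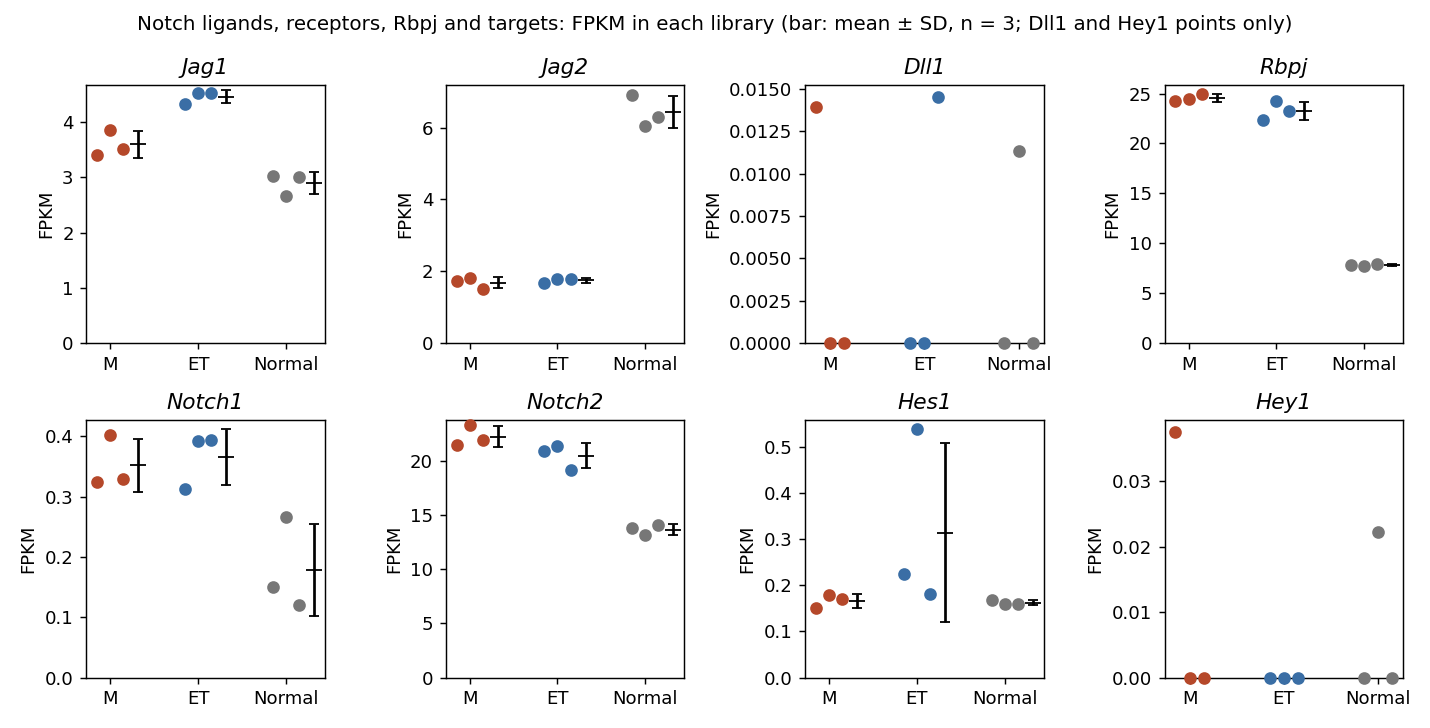
FPKM (vertical axis, starting at 0, a separate scale for each gene) of the 8 members in the 3 libraries each of M, ET and Normal; points are libraries and bars the mean ± SD, left out for Dll1 and Hey1. Jag2 is lower and Jag1, Notch2 and Rbpj are higher in every M and ET library than in any Normal library.

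Of the ligands, Jag2 (ENSMUSG00000002799, chr12:112907819-112929776, minus strand, GRCm38) encodes Jagged-2, a transmembrane ligand that activates Notch receptors on adjacent cells. Its level was 1.71, 1.80 and 1.50 FPKM in M, 1.67, 1.79 and 1.77 FPKM in ET, and 6.92, 6.05 and 6.30 FPKM in Normal. All 6 LPS-treated libraries were below all 3 Normal libraries, and M and ET overlapped. Across the table, 75.8% of tested genes did not overlap between M and Normal, and 74.1% between ET and Normal. Jag2 was 3.60-fold lower in M than in Normal (log2 fold change -1.85, SE 0.0846, edgeR adjusted p 7.10e-10) and 3.48-fold lower in ET than in Normal (log2 fold change -1.80, SE 0.0844, edgeR adjusted p 9.25e-10). In the mean of both against Normal, 7.24% of tested genes had a larger absolute log2 fold change. Of the 4 members in this fit Jag2 and Rbpj were past 2-fold, and 15.7% of tested genes were called at that size in the same comparison.

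Jag1 (ENSMUSG00000027276, chr2:137081456-137116644, minus strand) encodes Jagged-1, the related ligand with the same receptors. Jag1 stood at 3.41, 3.86 and 3.52 FPKM in M, at 4.33, 4.54 and 4.52 FPKM in ET, and at 3.02, 2.67 and 3.01 FPKM in Normal. The 3 groups did not overlap: M was intermediate, ET highest and Normal lowest. Jag1 was 1.32-fold higher in M than in Normal (log2 fold change 0.40, SE 0.0761, edgeR adjusted p 0.000466) and 1.62-fold higher in ET than in Normal (log2 fold change 0.70, SE 0.0760, edgeR adjusted p 3.41e-06). In the mean of M and ET against Normal its change was the smallest of the 4 tested members, and 33.4% of tested genes changed more.

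Per unit of transcript length, the order of the Jagged ligands differed between LPS-treated and untreated cells. The ratio of Jag1 to Jag2 FPKM was 1.99, 2.14 and 2.34 in M, 2.59, 2.53 and 2.55 in ET, and 0.436, 0.440 and 0.478 in Normal. Jag1 was thus above Jag2 in 6 of 6 LPS-treated libraries and below it in 3 of 3 Normal libraries. The M ratios all lay below the ET ratios, as the Jag1 levels did, while Jag2 overlapped between these groups.

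**Figure D2:**
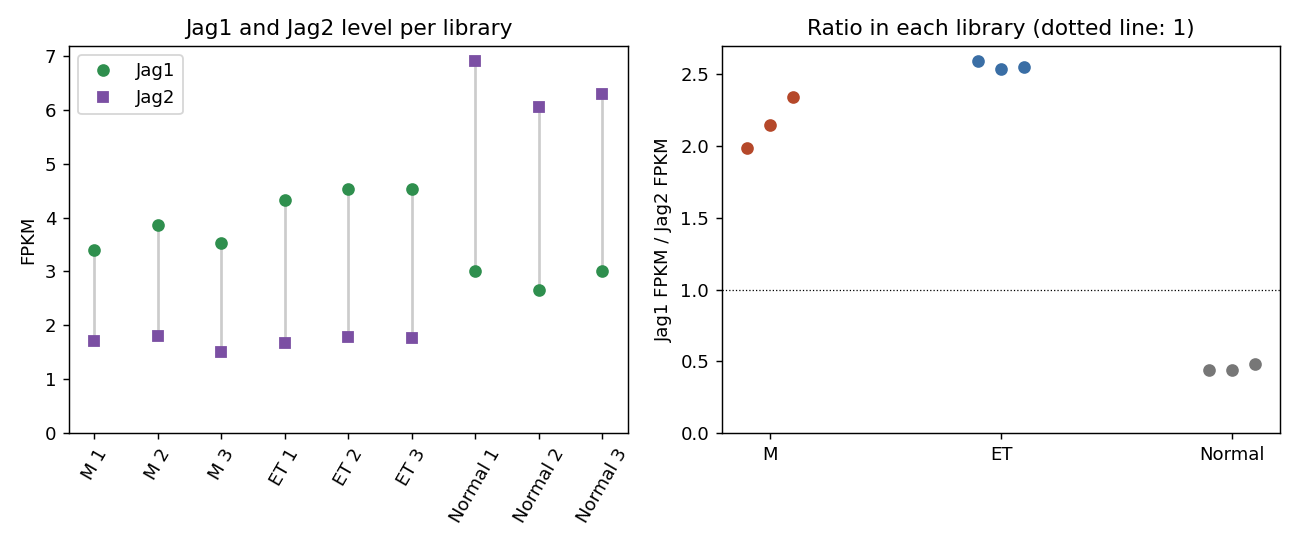
Left, Jag1 (circles) and Jag2 (squares) FPKM in each of the 9 libraries, joined by a grey line; right, the ratio of Jag1 to Jag2 FPKM in M, ET and Normal, with a dotted line at 1. The ratio is between 1.99 and 2.59 in the LPS-treated libraries and between 0.436 and 0.478 in the Normal ones.

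Dll1 (ENSMUSG00000014773, chr17:15367354-15376872, minus strand), the Delta-like 1 ligand gene, had 4, 0 and 0 counts in M, 0, 0 and 4 in ET, and 0, 4 and 0 in Normal. With 6 libraries at 0 and the other 3 just above the floor of 3 counts, no difference between groups was detectable at this depth. A Delta-type ligand with more RNA was Dll4, which is no member and was taken from the pathway list. Dll4 stood at 0.965, 0.964 and 1.02 FPKM in M, at 0.607, 0.386 and 0.555 FPKM in ET, and at 0.0808, 0.112 and 0.108 FPKM in Normal. The 3 groups did not overlap, with M highest and Normal lowest. In the looser-filter fit Dll4 was higher in M than in Normal (log2 fold change 3.33, edgeR adjusted p 9.27e-08), higher in ET than in Normal (2.39, edgeR adjusted p 1.95e-06) and higher in M than in ET (0.94, SE 0.208, edgeR adjusted p 0.0233). The M against ET call was lost when M replicate 1, 2 or 3 or ET replicate 2 was left out (edgeR adjusted p 0.0723, 0.0642, 0.0860 and 0.0880).

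Of the receptors, Notch2 (ENSMUSG00000027878, chr3:98013527-98150361, plus strand) was by far the more abundant. Its level was 21.5, 23.3 and 21.9 FPKM in M, 20.9, 21.4 and 19.2 FPKM in ET, and 13.8, 13.1 and 14.1 FPKM in Normal. Every LPS-treated library exceeded every Normal library, and each M library exceeded each ET library by a narrow margin. Notch2 was 1.73-fold higher in M than in Normal (log2 fold change 0.79, SE 0.0481, edgeR adjusted p 1.21e-08) and 1.58-fold higher in ET than in Normal (log2 fold change 0.66, SE 0.0481, edgeR adjusted p 6.91e-08). Across the table, 24.1% of tested genes changed more in the mean of M and ET against Normal.

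Notch1 (ENSMUSG00000026923, chr2:26457903-26516663, minus strand), the receptor best studied in T-cell development, was present at a low level. It had 305, 357 and 301 counts in M, 304, 331 and 368 in ET, and 143, 313 and 109 in Normal, which correspond to 0.324, 0.402 and 0.329 FPKM, to 0.313, 0.392 and 0.394 FPKM, and to 0.150, 0.266 and 0.121 FPKM. The LPS-treated libraries did not overlap with Normal in FPKM, and Normal replicate 2, the deepest library, was the highest of its group. In the looser-filter fit Notch1 was 2.05-fold higher in M than in Normal (log2 fold change 1.03, SE 0.240, edgeR adjusted p 0.00250) and 2.11-fold higher in ET than in Normal (log2 fold change 1.08, SE 0.240, edgeR adjusted p 0.00190). In that fit 58.9% of genes were called in M against Normal and 59.3% in ET against Normal. Without Normal replicate 2 the log2 fold changes were 1.43 in M and 1.48 in ET, and both calls held without any 1 library. Notch2 FPKM was 58.0 to 66.5 times Notch1 FPKM in M, 48.7 to 66.7 times in ET and 49.4 to 116 times in Normal, ranges that overlap.

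Rbpj (ENSMUSG00000039191, chr5:53466152-53657362, plus strand), whose product is the DNA-binding partner of every Notch receptor, rose most among the members. It measured 24.2, 24.4 and 25.0 FPKM in M, 22.3, 24.2 and 23.2 FPKM in ET, and 7.82, 7.71 and 7.92 FPKM in Normal. The Normal values lay far below all the others. Rbpj was 3.33-fold higher in M than in Normal (log2 fold change 1.74, SE 0.0367, edgeR adjusted p 3.71e-13) and 3.13-fold higher in ET than in Normal (log2 fold change 1.65, SE 0.0367, edgeR adjusted p 6.41e-13), and 7.89% of tested genes changed more in the mean of both. The table also has a processed pseudogene, Rbpj-ps3 (chr6:46529354-46530794, minus strand), with 15425, 14842 and 14946 counts in M, 14681, 14140 and 14713 in ET, and 4343, 5643 and 4267 in Normal. Its counts moved with those of Rbpj (20069, 19212 and 20147 in M, 19176, 18133 and 19235 in ET, 6578, 8060 and 6147 in Normal), and how the counting divided shared reads between the copies was not given, so the level of Rbpj itself is uncertain. With the counts of both summed, the log2 fold change was 1.80 in M against Normal and 1.72 in ET against Normal (edgeR adjusted p 2.15e-13 and 3.40e-13).

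The targets showed little RNA. Hes1 (ENSMUSG00000022528, chr16:30064384-30067796, plus strand), a transcriptional repressor and classic Notch target, had 21, 24 and 23 counts in M, 33, 65 and 24 in ET, and 24, 28 and 21 in Normal. ET replicate 2 was the highest library and the other ET values were near those of M and Normal. In FPKM, M stood at 0.150 to 0.180, ET at 0.180 to 0.538 and Normal at 0.159 to 0.169. In the looser-filter fit no difference in Hes1 was called: the log2 fold change was 0.11 in M against Normal (SE 0.478, edgeR adjusted p 0.870) and 0.96 in ET against Normal (SE 0.471, edgeR adjusted p 0.102). The ET value was 0.36 without ET replicate 2 (edgeR adjusted p 0.560), and it passed the threshold without ET replicate 3 (1.26, edgeR adjusted p 0.0405). Hey1 (ENSMUSG00000040289, chr3:8663359-8667256, minus strand), a related repressor, had 8, 0 and 0 counts in M, 0 in each ET library, and 0, 7 and 0 in Normal. The 7 libraries at 0 each allow up to 3 counts, and no group difference in Hey1 was detectable.

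Ordered by FPKM, the members ran differently in the LPS groups and in Normal. In M and in ET the order was Rbpj, Notch2, Jag1 and Jag2, with no overlap between neighbours. In Normal it was Notch2, Rbpj, Jag2 and Jag1, again without overlap. Below them Notch1 and Hes1 overlapped in ET and in Normal but not in M, and Dll1 and Hey1 stood at 0 in most libraries. Rbpj-ps3 stood above Rbpj in every library, at 165, 167 and 164 FPKM in M, 151, 167 and 157 in ET, and 45.7, 47.8 and 48.7 in Normal. How shared reads were divided between Rbpj and Rbpj-ps3 was not given, so the order of Rbpj and Notch2 is uncertain in M, in ET and in Normal.

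M against ET asks what the extract changed on top of LPS, with a sign that depends on the reading of the labels. Of the 4 tested members 1 was called, against a background of 9.08% of tested genes. Jag1 was 1.23-fold lower in M than in ET (log2 fold change -0.30, SE 0.0755, edgeR adjusted p 0.0284), and 11.3% of tested genes changed more. This call is fragile. It was lost without M replicate 1, M replicate 3, ET replicate 1 or ET replicate 2 (edgeR adjusted p 0.108, 0.0952, 0.0593 and 0.0939), while without ET replicate 3 it held (log2 fold change -0.29, edgeR adjusted p 0.0403). The summed macrophage markers were also lower in M than in ET, and the summed fibroblast markers higher, without overlap. Of the 8 macrophage markers, Csf1r, Cd68 and Lyz2 were called lower and 5 were not called. Among the uncalled ones, Adgre1, Cd14 and Itgam leaned higher in M (log2 fold change 0.11, 0.085 and 0.051). Fcgr1 and Spi1 leaned lower (-0.12 and -0.019). Of the fibroblast markers Lum and Dcn carried the difference while the collagen genes were near 0. The part of these marker differences in the Jag1 difference was not tested. The other tested members were not called. Notch2 had a log2 fold change of 0.13 (edgeR adjusted p 0.115) and Rbpj of 0.09 (edgeR adjusted p 0.138), and Jag2 of -0.05 (SE 0.0850, edgeR adjusted p 0.760). Notch2 and, before rounding, Rbpj did not overlap between M and ET in FPKM, which was true of 28.8% of tested genes. In the looser-filter fit, where 5.52% of genes were called, Notch1 had a log2 fold change of -0.04 (edgeR adjusted p 0.955) and Hes1 of -0.85 (SE 0.472, edgeR adjusted p 0.354).

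**Figure D3:**
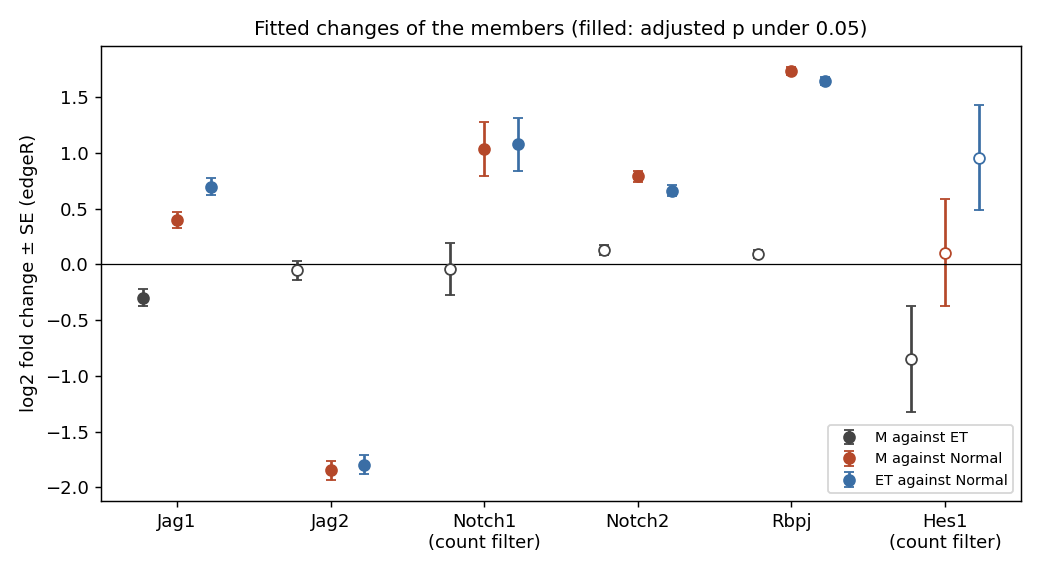
Log2 fold change ± SE (edgeR) of 6 members in M against ET (dark grey), M against Normal (red) and ET against Normal (blue); filled points have an adjusted p under 0.05, and Notch1 and Hes1 come from the fit with the count filter. Jag2 lies at -1.85 and -1.80 and Rbpj at 1.74 and 1.65 against Normal, whereas in M against ET Jag1, at -0.30, is the filled point.

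Beyond the members, 57 of 75 other Notch pathway genes in the table passed the FPKM filter. In the mean of M and ET against Normal, 26 were higher, 21 lower and 10 not called, which is 82.5% called beside 73.5% of all tested genes. With total counts as the only scaling 23 were higher and 26 lower, so the larger direction turned. The median log2 fold change was 0.04, beside -0.01 over all tested genes. In M against ET 4 were higher, 5 lower and 48 not called (15.8%, beside 9.08%). The same shares, 73.5% against Normal and 9.08% in M against ET, apply to the lists below. With 4 to 14 tested genes per list, the counts called are not a result about any list.

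The receptor-cleavage list, 9 tested genes, had 6 higher, 2 lower and 1 not called in the mean of M and ET against Normal. Furin, the convertase that makes the first cut in the Notch precursor, averaged 34.3 ± 0.468 FPKM in M, 36.3 ± 2.05 in ET and 10.2 ± 0.451 in Normal (SD, n = 3 each), a log2 fold change of 1.87. Psen2, a catalytic subunit of gamma-secretase, averaged 12.0 FPKM in M, 12.0 in ET and 4.70 in Normal (log2 fold change 1.43). Adam10, the main protease of ligand-induced cleavage, went the other way at 41.4 ± 1.15 FPKM in M, 35.6 ± 3.91 in ET and 73.4 ± 2.15 in Normal (log2 fold change -0.85). These 3 genes thus include both a maturation protease and a gamma-secretase subunit that rose and an ADAM protease that fell. In M against ET, Adam10 and Adam17, a second ADAM protease able to cut Notch, were higher (log2 fold change 0.23 and 0.15, edgeR adjusted p 0.0451 and 0.0297). The Adam10 call was lost without any 1 library other than ET replicate 3, its log2 fold change being 0.15 at the lowest, and under 15 of 18 alternatives in all. The Adam17 call was lost without any 1 M library or without ET replicate 1 or 2.

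The trafficking list, 13 tested genes, had 8 higher, 5 lower and none left uncalled against Normal in the edgeR fit. In that comparison, the mean of M and ET against Normal, 73.5% of all tested genes were called. Epn2, an epsin of the family that takes up ubiquitinated Notch ligands, averaged 8.74 FPKM in M, 7.01 in ET and 1.61 in Normal (log2 fold change 2.36), while its relative Epn1 averaged 23.4, 28.2 and 41.9 FPKM in M, ET and Normal (log2 fold change -0.63). Neurl1b, a ubiquitin ligase for Notch ligands, fell to 0.348 FPKM in M and 0.553 in ET, against 3.10 in Normal (log2 fold change -2.73). Neurl1b met the FPKM filter through its Normal libraries alone, and its M against ET value rests on levels below 1 FPKM. The Deltex gene Dtx2 rose (log2 fold change 1.65) and Dtx4 fell (-0.52). Related genes of this list therefore changed in opposite directions. In M against ET, Epn2 was higher (0.33, edgeR adjusted p 0.0101), and Epn1 (-0.26, edgeR adjusted p 0.00599), Neurl1b (-0.65, edgeR adjusted p 0.00993) and Dtx4 (-0.46, edgeR adjusted p 9.32e-05) were lower.

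Among the 7 tested glycosylation genes 4 were higher, 2 lower and 1 not called against Normal, led by the Fringe gene Rfng (log2 fold change -0.54), Gxylt1 (0.45) and Poglut1 (0.41), which modify sugars on Notch repeats; none of the 7 was called in M against ET by edgeR. Of 10 co-activator genes 2 were higher and 3 lower, with the Mastermind genes Maml1 (0.48) and Maml3 (0.32) higher and the acetyltransferase gene Kat2a lower (-0.74). Of 14 co-repressor genes 4 were higher and 7 lower, among them the histone deacetylase gene Hdac1 (0.67) and Ctbp1 (-0.54). In M against ET, Hdac2 was higher (0.19, edgeR adjusted p 0.0259) and Tle3, a Groucho-type co-repressor, lower (-0.19, edgeR adjusted p 0.0463). The Hdac2 call was lost without any 1 M library or ET replicate 1 or 2, and the Tle3 call without any 1 of those or Normal replicate 2.

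Of the other target genes 4 were tested against Normal. Myc, a growth regulator that is a Notch target in some cells and also responds to many other signals, averaged 6.94 ± 1.29 FPKM in M, 7.85 ± 0.245 in ET and 0.150 ± 0.0982 in Normal (log2 fold change 5.66, edgeR adjusted p 5.98e-10). Myc met the FPKM filter through the M and ET libraries alone, with 48, 23 and 16 counts in Normal. Ccnd1, the cyclin D1 gene, averaged 69.7 ± 4.18 FPKM in M, 83.2 ± 1.71 in ET and 73.4 ± 0.825 in Normal; its log2 fold change was 0.13 in the mean against Normal (edgeR adjusted p 0.00388) and -0.24 in M against ET (edgeR adjusted p 0.00300). The call of Ccnd1 against Normal was lost with total counts as the only scaling (log2 fold change 0.05, edgeR adjusted p 0.230) and with limma on FPKM. Hes6, a Hes-family gene that counteracts HES1, fell (-0.87), and so did Bcl2, a survival gene (-0.35). Bcl2 lay near the FPKM limit of the filter, at 0.994 FPKM in M, 0.771 in ET and 1.18 in Normal. It was called lower in ET than in Normal (-0.54, edgeR adjusted p 0.00227) but not in M (-0.16, edgeR adjusted p 0.276). In the mean of M and ET against Normal, 2 of the 4 genes were higher and 2 lower. The higher ones, Myc and Ccnd1, have many regulators besides Notch. Ccnd1 was called higher in ET than in Normal (log2 fold change 0.26, edgeR adjusted p 9.41e-05) but not in M (0.013, edgeR adjusted p 0.785).

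**Figure D4:**
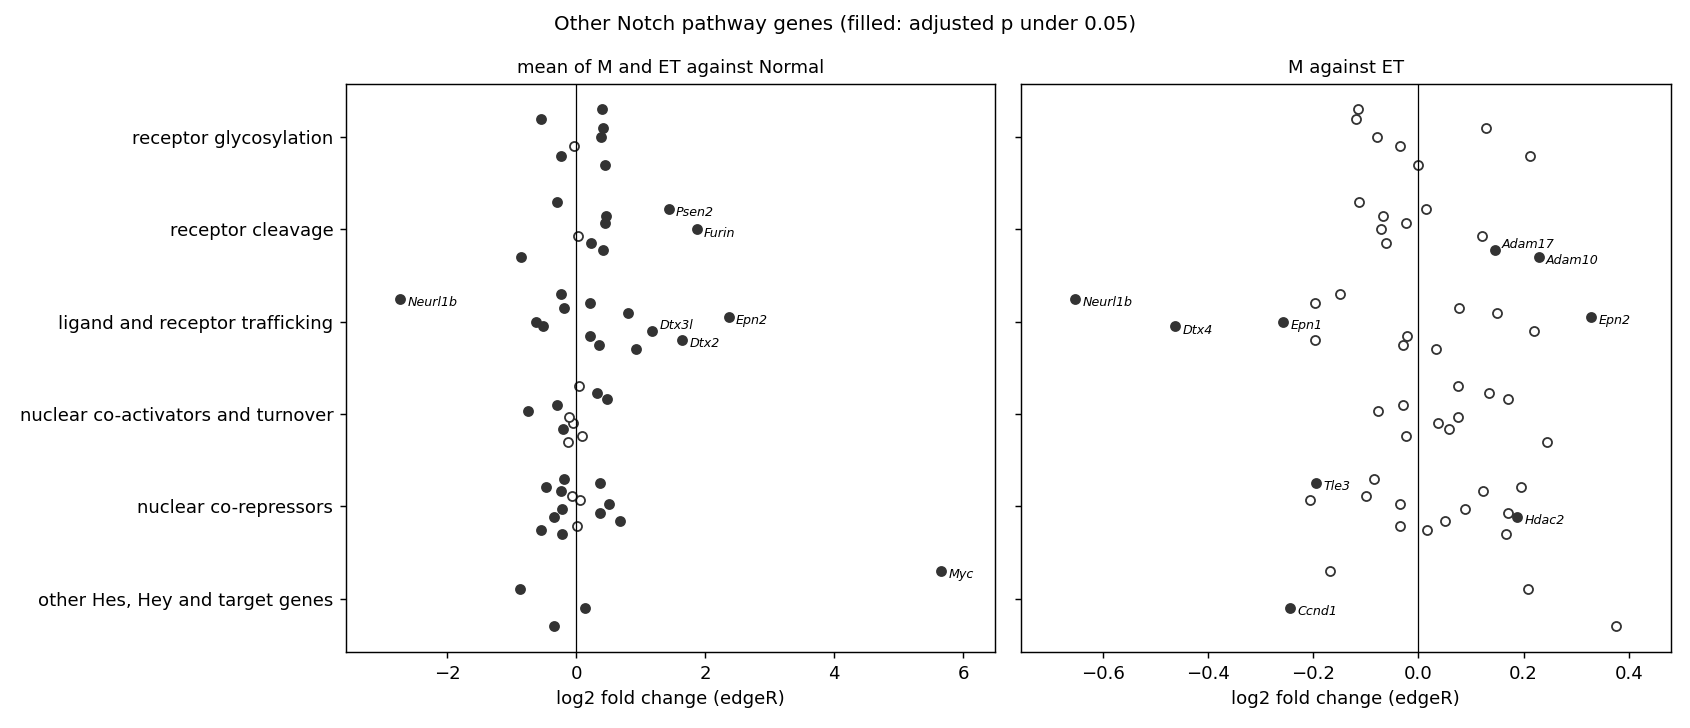
Log2 fold change (edgeR, horizontal axis) of the tested genes of 6 Notch pathway lists in the mean of M and ET against Normal (left) and in M against ET (right); each point is a gene, filled at an adjusted p under 0.05. Values on the left reach -2.73 for Neurl1b and 5.66 for Myc, and the 9 filled points on the right lie between -0.65 and 0.33. Neurl1b met the FPKM filter through Normal alone and Myc through M and ET alone.

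The genes whose pattern over the 9 libraries was nearest to each tested member were found by the root mean square difference of log2(FPKM + 1), each gene centred on its own mean. They were P4hb (0.0349) and Itprip (0.0378) for Notch2, Capn2 (0.0319) and Nckap5l (0.0426) for Jag1, Deptor (0.0553) and Slc44a1 (0.0627) for Jag2, and Pde4dip (0.0451) and Gfod1 (0.0468) for Rbpj. Capn2, like Jag1, averaged lower in M than in ET and lowest in Normal, at 8.03, 9.62 and 6.35 FPKM. On this scale the added 1 compresses low values, so near patterns can differ in fold change. Of the genes nearest to Jag2, Deptor averaged 0.625, 0.611 and 3.27 FPKM in M, ET and Normal, and Slc44a1 17.7, 18.7 and 49.9 FPKM. The Deptor averages in M and ET lay below the FPKM limit of the filter, unlike those of Jag2.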

How the data were processed

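Counts and FPKM per gene were computed by the authors and deposited in 1 table; the submitters' processing notes name cutadapt 1.9, HISAT2 2.2.1, StringTie 2.1.6, DESeq2 and edgeR, with no order. The labels' protocols describe poly(A) RNA and a strand-marking library. No source used here gives the strand setting of the counting, so reads of overlapping and antisense genes cannot be told apart; those overlapping Notch1, Notch2, Rbpj or Jag2 had at most 56 counts in any library. Coordinates of 22699 of the 26146 genes, the 8 members included, equal those of GENCODE M21 (GRCm38).

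The deposited counts of all 9 libraries were fitted in 1 model of 3 groups (edgeR 4.0.16 quasi-likelihood test, TMM factors, Benjamini-Hochberg adjustment over 11536 genes). The edgeR test itself returns no SE. Each SE given for edgeR is the absolute log2 fold change divided by the square root of the F value of its test. FPKM, as deposited, serve for levels and the filter. Detection floors of 3 counts cover counting error only. The code was tested on simulated data. Alternatives used limma 3.58.1 on log2(FPKM + 1) or log2(FPKM + 0.1) and DESeq2 1.42.0 (R 4.3.3). Nothing says that replicates were separate cultures, so p-values measure the spread between these libraries, which may be technical. Same-numbered libraries did not deviate together (correlations -0.093 to 0.055).

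The members, gene lists and tests were chosen with earlier results of these data known. Genes named from the lists are those called in M against ET and up to 3 per list with the largest change against Normal, of which 1 gene is not reported here; 2 similar genes are named per tested member. Dll4 was named after its values were seen, as a ligand that the looser filter keeps. Other list genes that only this filter keeps are not described. Among them, in the mean of M and ET against Normal, the receptor gene Notch4 and Maml2 were called higher (log2 fold change 1.45 and 2.31). L3mbtl3 was called lower (-0.64) and the ligand gene Dll3 was not called.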

Additional observations from a re-analysis of the deposited data

How the results depend on the processing

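Against Normal, 4 or 5 members were called under every alternative, and Jag1, Jag2, Notch2, Rbpj and Notch1 kept direction and call in each; Notch1 and Dll4 were understated on the log2(FPKM + 1) scale. In M against ET the single call, Jag1, had a log2 fold change of -0.35 to -0.25 and an adjusted p of 0.00387 to 0.108 over 18 alternatives. The number of members called was 0 with the replicate block (Jag1 -0.30, edgeR adjusted p 0.0528), 0 at an adjusted p of 0.01, 0 with no filter, and between 0 and 1 when 1 library was left out. The replicate numbers are not known to pair the libraries. Of the other Notch pathway genes, 9 were called in M against ET, beside 14 with DESeq2, 4 at an adjusted p of 0.01, 5 with no filter and 5 to 17 with 1 library left out, 17 being without ET replicate 3; the cause was not tested. Ccnd1, Dtx4, Epn1 and Epn2 kept their M against ET calls under all 18 alternatives. Leaving out 1 library turned the sign of uncalled M against ET values, which ranged from -0.11 to 0.018 for Jag2 and from -0.15 to 0.011 for Notch1. For the mean of M and ET, a fit of only the groups compared holds all 9 libraries and gives no separate value. Low counts limit Dll1, Hey1 and Hes1.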
